A study of Rattus norvegicus with 4 samples.

Results

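The 10 genes of the endoplasmic reticulum (ER) stress response studied here, Hspa5, Hsp90b1, Calr, Pdia4, Dnajb9, Herpud1, Atf6, Xbp1, Atf4 and Ddit3, were followed in glomeruli of 4 rats. They were taken by symbol, and 10 of 10 were found among the 13261 genes used. The animals were male Wistar rats of 150 to 175 g that form a single group, each given Adriamycin (ADR, doxorubicin) into a vein, a drug that injures podocytes and causes protein loss into the urine. The protocol names harvest on day 11 or 21 without saying which day applied here, and the labels give no dose. Groups given puromycin aminonucleoside, with pioglitazone, GQ-16 or vehicle, belong to the wider study. They and rats without ADR were not analysed here, so no value below shows a rise or fall caused by the drug. Each animal gave 1 library of polyadenylated RNA, and the replicate numbers 1 to 4 are names without order.

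The ER folds secreted and membrane proteins. When unfolded proteins accumulate there, 3 sensors in its membrane respond: ATF6, which is cut in the Golgi to release a transcription factor; IRE1, an RNase that splices Xbp1 mRNA into the form encoding the active XBP1 factor; and PERK, a kinase that slows translation while favouring that of Atf4. ATF6 and XBP1 raise chaperones and degradation components, whereas ATF4 raises amino acid genes and Ddit3, which encodes CHOP, a factor linked to cell death under prolonged stress. In the kidney this response has been studied in podocytes, which secrete much of the glomerular basement membrane. Reads per gene do not show Xbp1 splicing, ATF6 cleavage or PERK phosphorylation.

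Promoter sequence was examined first, because ATF6 and XBP1 act through short DNA elements. The ER stress response element (ERSE), read here as CCAAT, then 9 bases of any kind, then CCACG, is bound by the factor NF-Y at its first part and by ATF6 or XBP1 at its last. A RefSeq window running from 250 bases before to 50 bases after the gene start (build GRCr8) was at hand for 9 of the 10 genes. Atf6 had no entry. ERSE was found on either strand in 4 of these 9 windows, those of Hspa5, Hsp90b1, Calr and Xbp1. Of all 33469 windows, 22 held it, or 0.0657%, and among the 10704 windows whose symbol matches a measured gene the share was 0.149%. The related element ERSE-II, ATTGG, then 1 base, then CCACG, was found in Herpud1. It was held by 0.0508% of all windows and 0.0934% of those of measured genes. The windows below show these elements in capitals, 5′ to 3′ along the gene: ERSE in the first 4 and ERSE-II in Herpud1. The Hspa5 window is whole, and the others run 20 bases beyond the elements or to the window's edge.
Hspa5, chr3:38452766-38453065, plus strand: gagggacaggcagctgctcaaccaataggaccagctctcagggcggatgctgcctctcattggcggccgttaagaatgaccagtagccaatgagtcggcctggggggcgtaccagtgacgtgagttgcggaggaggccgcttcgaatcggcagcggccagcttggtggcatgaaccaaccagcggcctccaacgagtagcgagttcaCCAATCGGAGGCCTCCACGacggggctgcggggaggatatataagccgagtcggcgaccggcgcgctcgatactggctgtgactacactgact
Hsp90b1, chr7:23012327-23012489, minus strand: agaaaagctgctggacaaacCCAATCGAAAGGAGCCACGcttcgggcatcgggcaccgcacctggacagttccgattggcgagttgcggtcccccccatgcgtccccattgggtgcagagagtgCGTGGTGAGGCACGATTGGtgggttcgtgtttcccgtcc
Calr, chr19:40213117-40213173, plus strand: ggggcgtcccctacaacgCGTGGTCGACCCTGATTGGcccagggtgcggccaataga
Xbp1, chr14:84604538-84604596, plus strand: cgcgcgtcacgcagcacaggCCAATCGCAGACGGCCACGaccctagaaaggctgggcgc
Herpud1, chr19:10614801-10614851, minus strand: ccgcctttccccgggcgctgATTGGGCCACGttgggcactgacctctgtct

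The distance of the element from the gene start differed. Its first base lay 43 bases upstream in Hspa5 and 65 bases upstream in Xbp1. Hsp90b1 held 2 copies, at 176 and 72 bases upstream. The second of them, and the single copy of Calr at 232 bases upstream, lie on the opposite strand and therefore read CGTGG before ATTGG in the printed sequence. Herpud1, whose product recruits the machinery of ER-associated degradation, had its ERSE-II 124 bases upstream. The same window held TTGCATCA, a core of the sites that ATF4 shares with C/EBP factors, at 184 bases upstream. This core occurred in 0.795% of all windows and 0.514% of those of measured genes. TGACGTGG, a core bound by XBP1, and TGATGAAA, another ATF4-type core, occurred in 0.595% and 1.13% of all windows and in 0 of the 9. Among windows of measured genes their shares were 0.888% and 0.495%. Each motif was sought on both strands as these letters alone. A match is a description of sequence and does not show binding.

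The table of values held log2 CPM, a gene's reads scaled to a common library total, from which the whole reads were recovered. Totals ran from 13566962 reads in replicate 1 to 16207027 in replicate 2. The 10 genes had between 358 and 20058 reads per animal, so counting error was small for the abundant chaperones and larger for Ddit3 and Dnajb9. Together they took 0.409% ± 0.0269 (SD, n = 4) of reads, with 0.432%, 0.386%, 0.385% and 0.432% in replicates 1 to 4. Mitochondrial genes took between 7.46% and 12.5% of reads. The 18 podocyte marker genes summed to between 9727 and 15851 CPM and the 12 proximal tubule markers to between 3837 and 7571 CPM, so tubular RNA was present in the sieved glomeruli. CPM is not corrected for transcript length, and no transcript lengths were at hand, so levels are compared between animals and not between genes.

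Hspa5 (ENSRNOG00000018294) encodes BiP, the ER's HSP70-type chaperone, which also holds the sensors inactive. It stood at 1312, 952, 1041 and 1206 CPM in replicates 1 to 4, a mean of 1128 ± 162 CPM (SD, n = 4). Replicates 1 and 4 were high and replicate 2 low, and the highest animal exceeded the lowest 1.38-fold. The 95% exact Poisson intervals of the reads were apart in 6 of 6 pairs of animals. Its between-animal coefficient of variation, with counting error subtracted, was 14.3%.

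Hsp90b1 (ENSRNOG00000026963), which encodes the ER chaperone GRP94, stood at 1030.15, 967, 959 and 1066 CPM in replicates 1 to 4. Calr (ENSRNOG00000003029), the gene of the calcium-binding lectin chaperone calreticulin, stood at 1283, 1228, 1165 and 1316 CPM. Pdia4 (ENSRNOG00000006228), which encodes the disulfide isomerase ERp72, stood at 196, 175, 177 and 197 CPM. In each of these 3 genes replicate 4 was highest and replicate 1 next, but in Calr and Pdia4 the intervals of these 2 animals overlapped. The highest animal exceeded the lowest by only 1.11-fold, 1.13-fold and 1.13-fold in the 3 genes. Their coefficients of variation were 5.05%, 5.24% and 6.14%, against a median of 10.9% over all 13261 genes. Without replicate 3, the SD of Calr was 0.05 in place of 0.08 (log2). The ratio of Hsp90b1 to Calr reads, which no scaling between libraries can move, spanned 0.07 on the log2 scale over the 4 animals, the smallest span of the 45 pairs of genes. The ratio of Hspa5 to Calr spanned 0.40 and was highest in replicate 1.

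Dnajb9 (ENSRNOG00000004006) encodes ERdj4, a cochaperone that passes misfolded proteins to degradation and helps BiP to restrain IRE1. It stood at 39.8, 32.1, 35.3 and 42.6 CPM in replicates 1 to 4, a mean of 37.5 ± 4.64 CPM (SD, n = 4). As with Hspa5, replicates 1 and 4 were high and replicate 2 lowest, although the intervals of replicates 1 and 4 overlapped, as did those of replicates 1 and 3 and of 2 and 3. Its profile over the animals was nearer to that of Hspa5 than those of the other 8 genes were, with a root mean square difference of 0.08 in centred log2 values. Of all other genes in the table, 4.59% were nearer still.

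**Figure D1:**
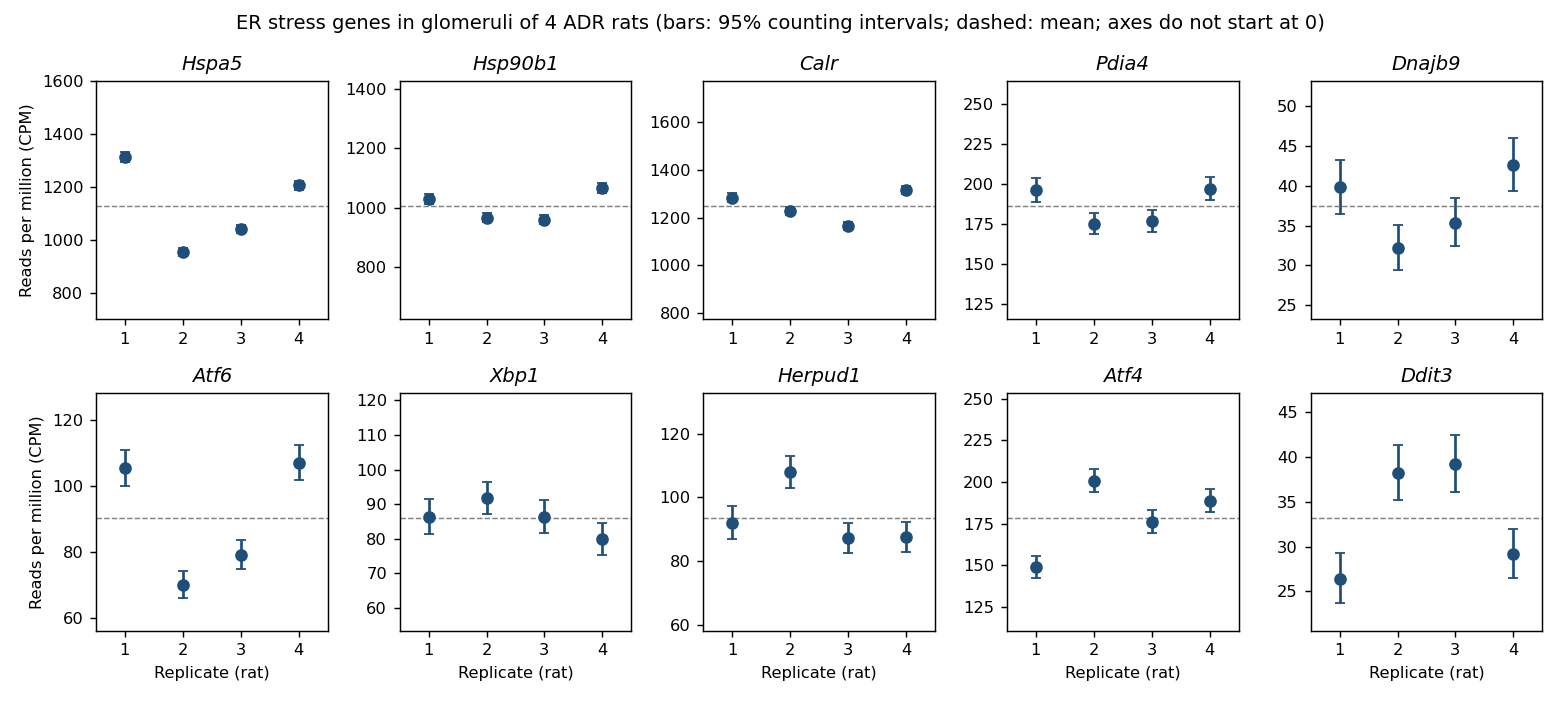
CPM (vertical axes, not starting at 0) of the 10 ER stress genes in each of the 4 ADR rats (horizontal axes), with 95% exact Poisson intervals as bars and the mean as a dashed line. Each axis spans the same multiple of its mean, so spreads can be compared: Hsp90b1, Calr and Pdia4 are nearly level, Atf6 is high in replicates 1 and 4, and Ddit3 is high in replicates 2 and 3.

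Among the sensors and factors, Atf6 (ENSRNOG00000024632) had the largest SD of the 10 genes over all 4 animals, though not under each alternative. It stood at 105, 69.8, 79.1 and 107 CPM in replicates 1 to 4, a mean of 90.3 ± 18.7 CPM (SD, n = 4). Replicates 1 and 4, whose intervals overlapped each other, lay above the intervals of replicates 2 and 3, and the highest animal exceeded the lowest 1.53-fold. The SD of its log2 values, 0.31, stood at percentile 77.7 of all genes. Ddit3 had the larger SD with mitochondrial genes out of the total, at 0.31 against 0.27 for Atf6. The same was so without replicate 2 (0.30 against 0.25) and without replicate 4 (0.32 against 0.30).

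Xbp1 (ENSRNOG00000010298) differed little between animals. It stood at 86.4, 91.8, 86.4 and 79.8 CPM, a mean of 86.1 ± 4.88 CPM (SD, n = 4). The intervals were apart for a single pair of the 6, replicates 2 and 4, and without replicate 4 the SD was 0.05 (log2) in place of 0.08. The ratio of Xbp1 to Atf6 spanned 0.82 on the log2 scale, highest in replicate 2 and lowest in replicate 4. Herpud1 (ENSRNOG00000018796) stood at 91.9, 108, 87.2 and 87.4 CPM, with replicate 2 above the other animals and the intervals of the other 3 overlapping. Its SD fell from 0.14 to 0.04 (log2) without replicate 2. Its profile was the nearest of the 10 to that of Xbp1, and their ratio spanned 0.22.

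On the PERK branch, Atf4 (ENSRNOG00000017801) stood at 149, 200.5, 176 and 189 CPM in replicates 1 to 4, a mean of 179 ± 22.2 CPM (SD, n = 4). Replicate 1 was low and apart from the other 3, and without it the SD fell from 0.19 to 0.09 (log2). Ddit3 (ENSRNOG00000006789) stood at 26.4, 38.2, 39.2 and 29.1 CPM, a mean of 33.2 ± 6.43 CPM (SD, n = 4). Replicates 2 and 3 were high and overlapped each other, replicates 1 and 4 were low and overlapped each other, and the 2 sets of intervals were apart. The SD of Ddit3, 0.28, stood at percentile 74.2 of all genes.

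The 10 genes did not share 1 order of the animals, and Atf4 and Ddit3 differed from each other in theirs. The 2 highest values of Hspa5, Hsp90b1, Calr, Pdia4, Dnajb9 and Atf6 were those of replicates 1 and 4, in 6 of the 10 genes, an arrangement that 23.6% of all genes showed. The 2 highest values of Ddit3 and Xbp1 were those of replicates 2 and 3, as for 23.5% of all genes, but in Xbp1 replicates 1 and 3 had the same CPM to 3 digits. These orders were singled out after the values were seen, and no test was made of them. With mitochondrial genes out of the total, Calr left the first set, which then held 5 genes, against 18.0% of all genes. In ratios, which need no scaling, Atf6 to Ddit3 spanned 1.13 on the log2 scale (2.18-fold), highest in replicate 1 and lowest in replicate 2. Hspa5 to Ddit3 spanned 0.99 (1.99-fold) between the same animals, and Atf4 to Atf6 spanned 1.02 with its highest value in replicate 2. These were the 3 widest spans of the 45.

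**Figure D2:**
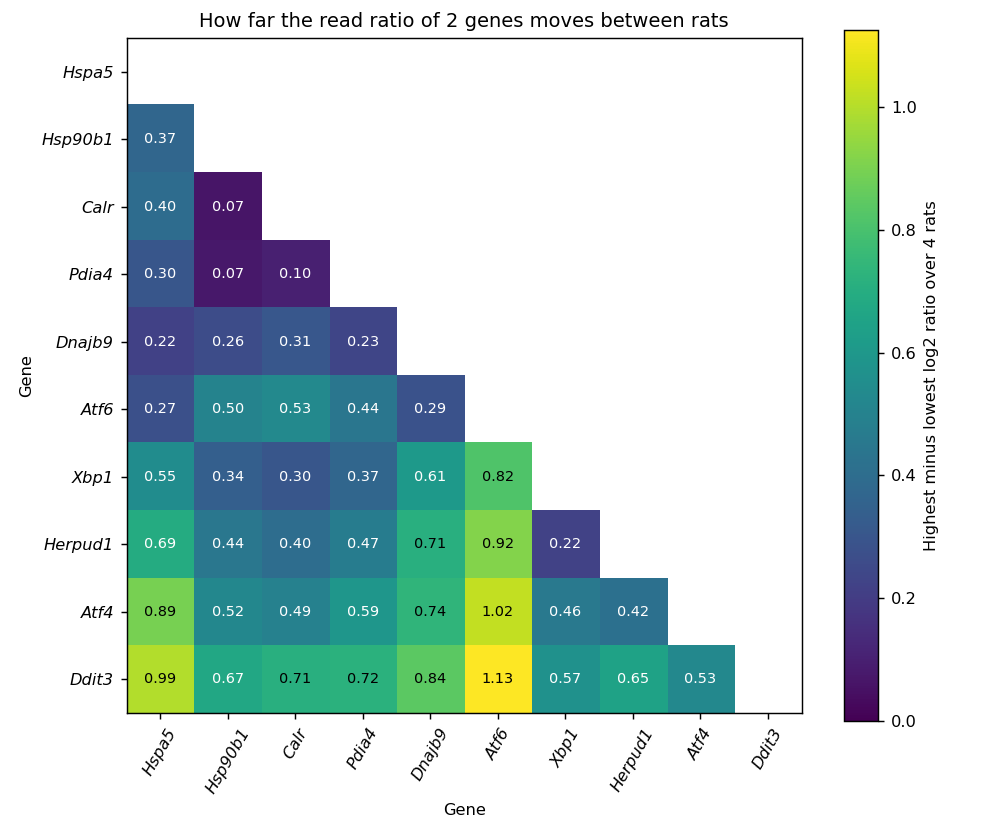
Span of the read ratio of each pair of the 10 genes over the 4 rats, as the highest minus the lowest log2 ratio (colour and number), with a gene on each axis. Ratios among Hsp90b1, Calr and Pdia4 span 0.10 or less, whereas Ddit3 against Atf6 spans 1.13.

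Markers of cell types also differed between the animals, some lists in the order of 1 of the 10 genes and others not. The podocyte markers had median deviations from their own means of 0.44, -0.54, -0.08 and 0.21 (log2) in replicates 1 to 4, the same order of animals as Hspa5. In 16 of the 18 podocyte genes the 2 highest values were those of replicates 1 and 4, and Podxl, which encodes the podocyte surface sialomucin podocalyxin, stood at 2967, 1842, 2272 and 2473 CPM. Summed podocyte levels were 15851, 9727, 12593 and 14655 CPM. The 10 endothelial markers had median deviations of -0.19, 0.10, 0.19 and -0.11, the same order as Ddit3. Summed, they reached 6573, 7859, 8742 and 7298 CPM, and in 7 of the 10 the 2 highest values were those of replicates 2 and 3. The 10 immune markers, with median deviations of -0.33, 0.11, 0.22 and -0.01, had the order of Ddit3 by the median, but in 3 of the 10 alone were the 2 highest values those of replicates 2 and 3, and their sums, 1165, 1481, 1392 and 1317 CPM, were highest in replicate 2. The 10 mesangial markers had median deviations of -0.37, 0.30, 0.02 and 0.13, the order of Atf4 by the median. However, they summed to 2085, 2394, 2364 and 2689 CPM, highest in replicate 4. In replicate 2, 5 of them were highest and 4 lowest, against 21.3% and 31.5% of all genes. The 12 proximal tubule markers had median deviations of 0.41, 0.15, -0.64 and 0.06. They were lowest in replicate 3 in 12 of 12 genes, against 19.6% of all genes. None of the measured podocyte, endothelial or immune markers was at 0 reads in any animal, the lowest having 16. The same holds for every gene used, the lowest having 2 reads, so it is nothing particular to these markers. In bulk tissue, a change in the number of cells of a type cannot be told apart from a change in RNA per cell, and the part of these markers in the orders of the ER stress genes was not tested.

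Of the stress responses outside the ER, the 14 cytosolic heat shock genes were highest in replicate 2, with median deviations of 0.01, 0.20, -0.09 and -0.12. In 10 of the 14 the highest value was there, as in Herpud1, Xbp1, Atf4 and 21.3% of all genes. The 10 glucocorticoid-induced genes had median deviations of -0.25, 0.24, 0.09 and -0.02, and the 15 immediate early genes -0.28, -0.05, 0.16 and 0.14. Both lists were lowest in replicate 1 by the median. There 5 of the 10 and 9 of the 15 genes were lowest, against 35.0% of all genes. By the mean, the glucocorticoid-induced genes were lowest in replicate 4, at -0.40 against -0.38 in replicate 1. Of the plasma cell and B cell markers, 4 of the 10 listed genes had values. They summed to between 14.2 and 38.3 CPM, highest in replicate 3. The part of these responses was not tested.

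**Figure D3:**
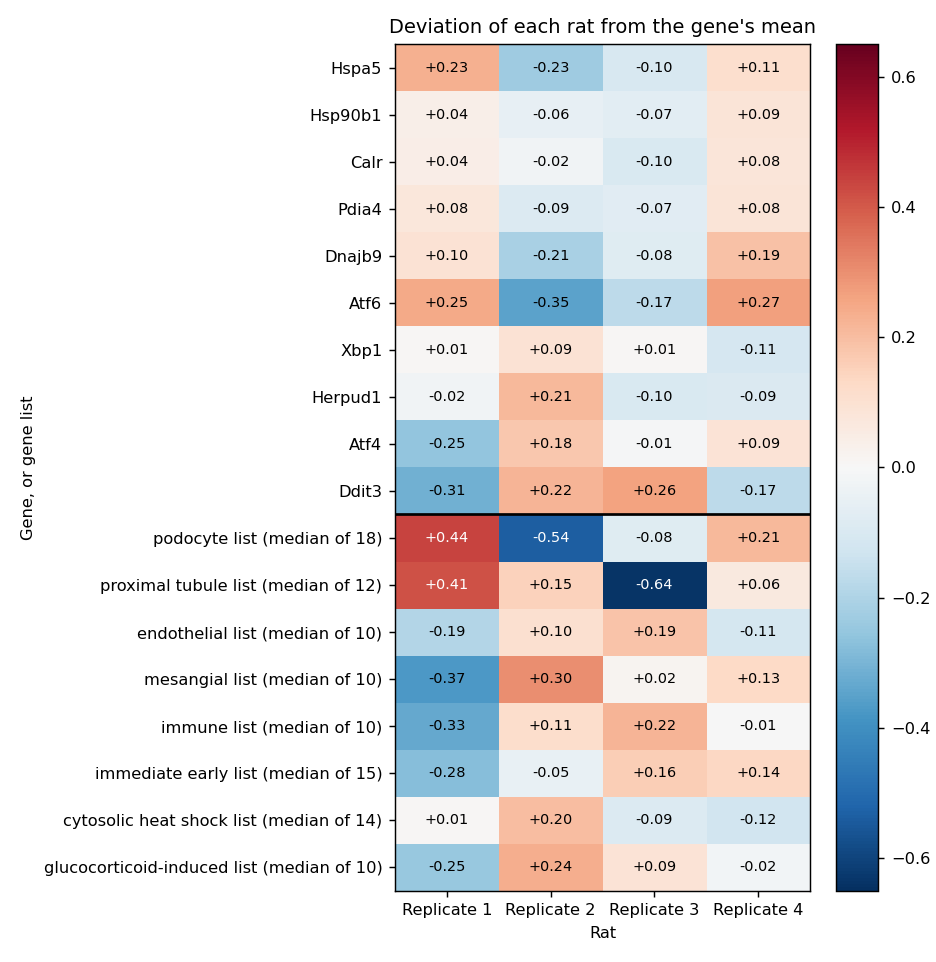
Difference of each of the 4 rats (columns) from the mean of a gene's log2 values (rows above the line) or, below the line, the median of that difference over a marker or response list; red is above and blue below the mean. Hspa5 follows the order of the podocyte list, 0.44 to -0.54, while Ddit3 follows that of the medians of the endothelial and immune lists.

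Whether the animals differed by more than reads alone allow was tested for each gene with a chi-square index of dispersion on recovered reads, adjusted by Benjamini-Hochberg over 13261 genes. All 10 genes passed at an adjusted p under 0.05, as did 69.5% of all genes. The adjusted p was 2.12e-223 for Hspa5, 1.90e-37 for Atf6, 3.25e-11 for Ddit3 and 0.00801 for Xbp1, the weakest of the 10. Without replicate 2, 8 genes and 58.4% of all genes passed, Xbp1 and Herpud1 falling out. Without replicate 4, 9 genes and 65.4% of all genes passed, Xbp1 falling out. The labels list the 4 as separate samples, and the test measures only the spread between these samples.

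A limma fit then set each gene's variance between animals against that of genes of similar abundance. It called 0 of the 10 genes and 0% of all genes. Among the 10, 0 had an unadjusted p under 0.05 (725 of all genes did), and the smallest adjusted p was 0.94, for Atf6 (limma). A Pearson statistic at a dispersion trend held fixed, adopted in earlier work on these data after limma had called no gene and therefore given as a description, called 0 of the 10 and 7.52% of all genes; the smallest adjusted p was 0.133, for Atf6, and 0.296 followed for Ddit3. At an unadjusted p under 0.05, these 2 genes passed, as did 15.9% of all genes; without replicate 4, 0 of the 10 did. The median SD of the 10 genes was 0.16, against 0.18 for all genes, with 4 of the 10 above the latter. This SD includes counting error, and all 10 genes lay above the median level of all genes. With counting error subtracted, the median coefficient of variation was 10.9% for the 10 and 10.9% for all genes. Each of the 10 genes thus varied between the 4 animals beyond counting error, though not between every pair of animals. Neither limma nor the fixed-trend statistic called any of the 10 genes against the spread of other genes. The highest animal exceeded the lowest by 1.11-fold to 1.53-fold in these genes. On simulated data, limma called 0% and the fixed-trend statistic 16% of 50 genes changed 1.5-fold in 1 animal. That change came on top of simulated variation between animals, so it is not the same measure as the ratio of highest to lowest. In the real data limma's smallest adjusted p over all genes was 0.912. The absence of calls therefore does not show that these genes were even.

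**Figure D4:**
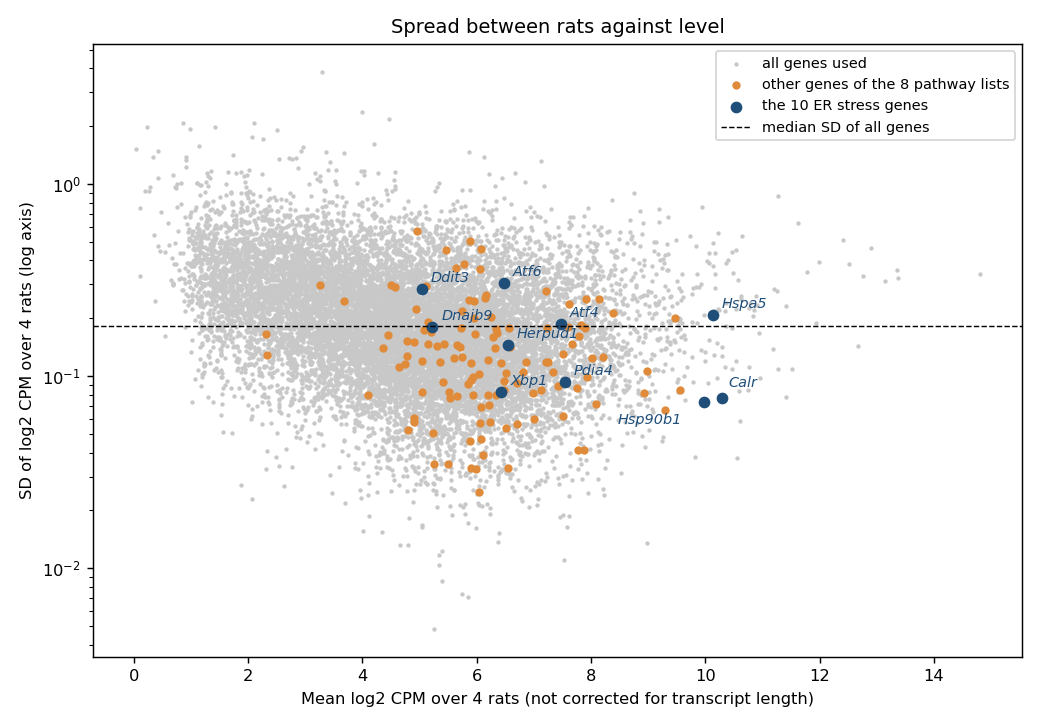
SD of log2 CPM over the 4 rats (vertical, log axis) against mean log2 CPM (horizontal, not corrected for transcript length) for all 13261 genes (grey), the other genes of the 8 pathway lists (orange) and the 10 ER stress genes (blue, labelled). Atf6, Ddit3, Hspa5 and Atf4 lie above the dashed line, the median SD of all genes (0.18), and the other 6 below it.

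The wider pathway was described with 8 lists that held 122 further measured genes. Of these, 92 (75.4%) varied beyond counting noise, against 69.5% of all genes. The fixed-trend statistic called 7 (5.74%), against 7.52% of all genes. limma called 0, with 4 of the 122 and 5.47% of all genes at an unadjusted p under 0.05. Their median SD was 0.12. In 48 of the 122 (39.3%) the 2 highest values were those of replicates 1 and 4, and in 22 (18.0%) those of replicates 2 and 3, against 23.6% and 23.5% of all genes. The shares of all genes became 18.0% and 31.3% where totals left out mitochondrial genes. The counts below are of genes whose animals differed beyond counting noise, which has no direction and which 69.5% of all genes showed, and each list's count includes those of the 10 genes that belong to it. The genes named in each list are those with the most and fewest CPM and the largest SD, and the order by CPM is one of reads, not of molecules.

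Among 17 ER chaperones and cochaperones, 16 varied beyond counting noise. Hyou1, which encodes the large chaperone that recharges BiP with ATP, had the largest SD, 0.25, at 335, 229, 265 and 318 CPM in replicates 1 to 4, the same order of animals as Hspa5. Sdf2l1, a partner of ERdj3, had the fewest reads, with 32.7, 32.5, 37.9 and 39.7 CPM, and was not high in replicate 1. Of 17 disulfide isomerases and oxidases, 15 varied beyond counting noise. Pdia3 (ERp57) stood between 603 and 670 CPM and Ero1b, an oxidase that recharges these enzymes, between 18.4 and 23.3 CPM. Pdia5 differed most, with 17.3 CPM in replicate 1 and 34.5, 40.5 and 38.1 CPM in the others, unlike Pdia4, which was high in replicate 1; it was called at the fixed trend (adjusted p = 0.00227).

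Among 17 sensors, processing enzymes and factors, 12 varied beyond counting noise. Mbtps1 and Mbtps2 encode the Golgi proteases that cut ATF6 in succession. Mbtps1 stood at 266, 206, 225 and 263 CPM, again high in replicates 1 and 4 and lowest in replicate 2, as Atf6 was, whereas Mbtps2 stood between 16.2 and 18.0 CPM and did not vary beyond counting noise. Creb3l2, a membrane-bound factor of the same kind as ATF6, had the largest SD, 0.46, at 103, 51.1, 54.5 and 70.7 CPM (adjusted p = 2.37e-05 at the fixed trend). Of 8 genes of eIF2α kinases and phosphatase subunits, 4 varied beyond counting noise; Eif2ak2, which encodes the kinase PKR, stood between 67.4 and 89.3 CPM. Ppp1r15a, which encodes GADD34 and reverses the PERK signal, stood at 31.7, 36.3, 38.4 and 42.0 CPM. It was lowest in replicate 1, as Atf4, Ddit3 and 35.0% of all genes were. Eif2ak3, the gene of PERK itself, and Ern1, the gene of IRE1, are named after their values were seen. Eif2ak3 stood at 46.7, 37.5, 42.1 and 46.4 CPM and Ern1 at 38.8, 29.1, 36.7 and 38.0 CPM. Both were lowest in replicate 2, as Hspa5 and 31.5% of all genes were, whereas Atf4 and Ddit3 were lowest in replicate 1. Their values in replicates 1 and 4 were close, and no counting intervals were made for them, so their full order of animals is not resolved.

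Of 20 Atf4 and Ddit3 targets, 17 varied beyond counting noise, and their median SD, 0.21, was the highest of the 8 lists. Nupr1, a stress-induced chromatin protein gene, stood at 41.2, 95.1, 59.1 and 52.7 CPM, lowest in replicate 1 and highest in replicate 2, as Atf4 was. Slc3a2, the heavy chain of amino acid exchangers, went otherwise, with 274, 208, 207 and 287 CPM. Mthfd2 had the fewest reads, between 4.59 and 5.86 CPM. Phgdh and Psat1, serine synthesis genes named here after their values were seen, were highest in replicates 1 and 2 with 65.6 and 46.7 CPM and 74.7 and 62.4 CPM, and lowest in replicate 3 with 30.6 and 41.6 CPM. The targets therefore shared no single order: 3 of the 20 had their 2 highest values in replicates 1 and 4, and 6 in replicates 2 and 3.

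Of 25 genes of ER-associated degradation, the route that carries misfolded proteins to the proteasome, 17 varied beyond counting noise. Vcp, the ATPase that pulls proteins out of the membrane, stood at 563, 483, 480.4 and 508 CPM, and Ube2j1, a ubiquitin-conjugating enzyme gene, between 23.9 and 28.7 CPM. Edem3, a mannosidase gene, had the largest SD, 0.37, at 67.6, 37.5, 45.0 and 54.6 CPM, in the order of Hspa5. Of 17 translocon and signal peptidase genes, 13 varied beyond counting noise, from Sec62, between 254 and 285 CPM, to Sec61g, between 30.2 and 34.2 CPM. Srp54a, of the signal recognition particle, had the largest SD, 0.20. Of 14 genes of the lectin cycle and glycosylation, Calr among them, 11 varied beyond counting noise. In 11 of the 14 the 2 highest values were those of replicates 1 and 4, and in 0 those of replicates 2 and 3, against 23.6% and 23.5% of all genes. Stt3b, a catalytic subunit of the oligosaccharyltransferase, had the largest SD in this list, 0.25, at 87.3, 60.3, 62.3 and 77.1 CPM, and Mogs, the glucosidase gene that starts glycan trimming, had the fewest reads, between 22.5 and 27.1 CPM.

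**Figure D5:**
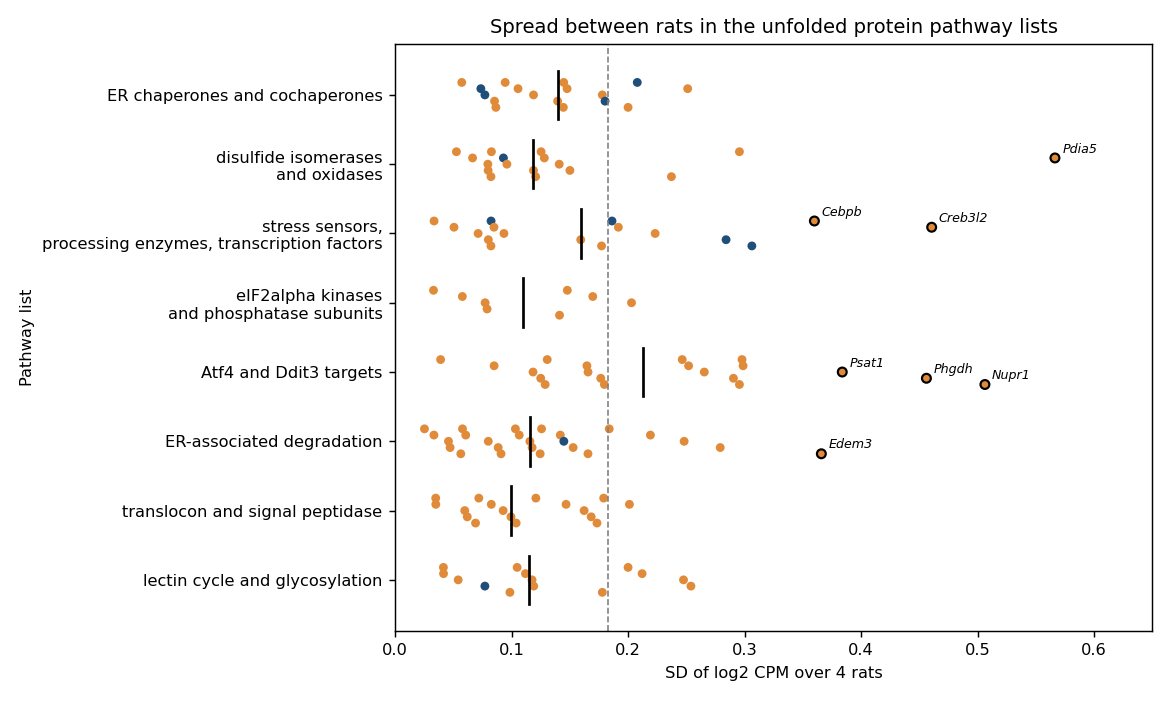
SD of log2 CPM over the 4 rats (horizontal) for each measured gene of the 8 pathway lists (rows), with the 10 ER stress genes in blue, other genes in orange, list medians as black bars and the median of all genes (0.18) as a dashed line; black rims and names mark genes called at the fixed dispersion trend. The medians of 7 lists lie left of the dashed line, and that of the Atf4 and Ddit3 targets, 0.21, lies right of it.

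Genes whose windows hold ERSE were also set side by side. Besides the 4 above, 11 measured genes had it, of which 4, Canx, Dnajc3, Creld2 and Ero1b, are in the pathway lists. Their 11 SDs ran from 0.08 to 0.22, and limma and the fixed-trend statistic called 0 of them (10 of the 11 varied beyond counting noise). Canx, the membrane-bound partner of calreticulin, followed the order of animals of Hspa5. Dnajc3, which encodes a BiP cochaperone, did so too, but its replicates 1 and 4 were close, at 59.4 and 58.1 CPM. Creld2 was highest in replicate 3 and lowest in replicate 1. The element was thus found in genes of different orders, Xbp1 among them.

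The genes of the whole table whose centred profiles lay nearest were listed for Hspa5 and Xbp1. For Hspa5 they were RGD1305110, Saraf, Dmxl1, Creb1 and LOC100911295, with root mean square differences of 0.015 to 0.017 (log2, over 4 animals). For Xbp1 they were Dagla, Rsph3, Sf3a1, AABR07044273.1 and Tubb6, at 0.011 to 0.015. Of the 10 genes, Ddit3 and Atf4 lay farthest from Hspa5. Ddit3 was farther from Hspa5 than 88.7% of all genes were, and Atf4 was farther than 73.4%.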

How the data were processed

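Stranded poly(A) libraries of sieved glomeruli were sequenced as paired ends from RNA with a RIN above 7, per the labels. The submitters' processing notes name HISAT2, featureCounts, Subread and limma and the build Rnor_6.0; versions, strand setting and low-gene filter are not given in the sources used here. The deposited table holds log2 values. No header states their form: 2 to the value was, within 0.01 reads and for 100% of 13261 genes, a whole number of reads plus 0.5, times a constant of the sample, so they are log2 CPM. Of 13265 rows, 4 with displaced cells were left out, and 116 rows sharing a symbol were not used by symbol.

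Computed here (R 4.3.3, limma 3.58.1, Python 3.11.15, scipy 1.17.1): recovered reads, a chi-square test against counting noise, limma's F test of residual variance on log2(CPM + 1) (intercept only, abundance trend), and a Pearson statistic at a dispersion trend fixed in 40 bins, all adjusted by Benjamini-Hochberg over all genes at 0.05. Intervals cover counting error only. Alternatives were other scalings, pseudocounts, a filter, a robust prior, 20 bins and leaving out each replicate. The scripts were tested on simulated data for 13261 genes. Of 50 genes changed 1.5-fold in 1 replicate, limma called 0% and the fixed-trend statistic 16%. Of 50 changed 2-fold, limma called 28% and the fixed-trend statistic 78%, and of 50 changed 4-fold, both called 100%. In the real data limma called 0 genes. Its adjusted p was 0.912 for Magi2, whose highest animal exceeded the lowest 4.61-fold, and for Cd79b, at 6.88-fold. Whether the percentages above hold for the real data was not tested. The 10 genes, the lists and the tests were chosen with earlier results of these data known. Named genes are the 10, the highest, lowest and most uneven gene of each list, and the 5 nearest profiles of Hspa5, Ddit3 and Xbp1; those of Ddit3 are not reported here. Promoter windows are from RefSeq (GRCr8).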

Additional observations from a re-analysis of the deposited data

Results flagged for a closer look

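In 69 sets of 4 values (the 10 ER stress genes, 18 list means and 41 other genes, being the 3 most abundant, the lowest and the most uneven of each pathway list and those named after their values were seen), 1 animal lay far from the other 3, measured as its gap to the next value over the whole range (Dixon), in 1, Mthfd2, a mitochondrial folate enzyme gene, with a ratio of 0.862. Replicate 3 had 90 reads there, against 63, 77 and 70 in replicates 1, 2 and 4, and no difference beyond counting noise was detected (adjusted p = 0.384, chi-square test over all genes). Chance sets apart about 1 in 20 such sets, and 5.08% of all genes met the criterion. None of the 10 ER stress genes did; the largest ratio among them was 0.752, for Herpud1, which was high in replicate 2.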

How the results depend on the processing

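The number of the 10 genes beyond counting noise was 10 under both other scalings and the filter (68.8% to 70.2% of all genes), and 8 to 10 when each replicate was left out in turn (55.2% to 65.4%). limma called 0 of the 10 under each of its 10 alternatives, and so did the fixed-trend statistic under its 8. The calls of the latter over all genes fell from 997 to 664, 713, 594 and 626 without replicates 1, 2, 3 and 4 in turn. With mitochondrial genes out of the total, all means rose, by up to 0.14 (log2). With median-of-ratios factors, 1 gene rather than 2 had both highest values in replicates 2 and 3, Ddit3. In all, 4 SDs moved by over 1.5 times: to 0.05 for Calr without replicate 3 and for Xbp1 without replicate 4, to 0.09 for Atf4 without replicate 1, and to 0.04 for Herpud1 without replicate 2. The order of genes by level per length was not run, since no transcript lengths were at hand. Depth limits Ddit3 and Dnajb9 most.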
